A study of Arabidopsis thaliana with 10 samples.

Results

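The gene set was the cytochrome P450 genes of *Arabidopsis thaliana* that lie outside the triterpene biosynthetic gene clusters. It held each protein-coding gene of the 5 nuclear chromosomes whose primary symbol is CYP followed by a number, a letter and a number, without the 8 P450 genes of those clusters, and came to 211 of 27444 protein-coding genes. The samples were shoots of 2-week-old Col-0 (wild-type) seedlings, all of 1 genotype and with no treatment or control group. ChIA-PET, which ligates and sequences pairs of DNA ends held together in cross-linked chromatin enriched with an antibody, was done with antibodies against H3K4me3, RNAPII (RNA polymerase II), H3K4me1, H3K27me3 and H3K9me2, with 2 labelled replicates each (10 samples). The processed data are 1 loop list per antibody over the combined replicates (how the library numbers of a list map to its 2 labelled replicates is not stated), so no spread between replicates can be given and no test over samples was made. Intervals below are exact 95% intervals that cover counting error only, and they are too narrow where neighbouring genes share an anchor. Shoots of many seedlings mix cell types, and a mark in few cells cannot be told apart from a weak mark in all of them.

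P450 enzymes are haem proteins that insert oxygen into small molecules, and plants use them to make and to break down hormones, pigments, lignin, cuticle lipids and defence compounds. The first number in a CYP name is the family, assigned by protein similarity, and related genes often stand side by side in tandem arrays that arose by local duplication. H3K4me3, H3K4me1 and RNAPII mark transcribed genes in plants, H3K27me3 is laid down by Polycomb complexes at repressed genes, and H3K9me2 marks heterochromatin. The H3K4me3, RNAPII and H3K4me1 lists are called the 3 active lists here.

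A gene was counted as an anchor gene of a list when at least 1 loop anchor overlapped, by 1 bp or more, the stretch from 1 kb upstream of its transcription start site (TSS) to its end. The 5 lists held 59276 loops and 612472 PETs (paired-end tags joining the anchors), from 6310 loops for H3K27me3 to 14465 for H3K4me3. The lowest PET count of a loop within a chromosome ran from 4 (RNAPII) to 6 (H3K4me3 and H3K4me1), so counts are compared within a list only. As a check of the labelled tissue, all 23 of 23 listed photosynthesis genes were anchor genes of an active list. Of 10 listed root genes 8 were found, 7 of them at anchors of the H3K27me3 list and 2 at anchors of an active list. Of all protein-coding genes, 64.0% were at an active anchor and 19.0% at an H3K27me3 anchor. The listed genes were chosen with earlier results of these data known, so this check is weak. Close paralogs can share reads. Over all 100-base windows the median member was 100% unique in the genome, and how the reads themselves were placed was not tested. CYP706A1 (72.2%) and CYP706A2 (66.8%) were the only members below 90%, and neither was at an anchor in any list.

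The promoters of 5 members are shown to set sequence beside the anchors described below: 2 genes of abscisic acid breakdown whose anchors differ in mark and place, and 3 CYP71A genes at H3K27me3 anchors that carry the same short element. Each is the 250 bases upstream of the TSS, 5′ to 3′ on the gene's strand, from the RefSeq TAIR10.1 genome, and capitals mark the telobox AAACCCTA (an element known to bind factors that recruit Polycomb in *Arabidopsis*), the GA repeat GAGAGAGA or the G-box CACGTG, on either strand.
CYP707A1: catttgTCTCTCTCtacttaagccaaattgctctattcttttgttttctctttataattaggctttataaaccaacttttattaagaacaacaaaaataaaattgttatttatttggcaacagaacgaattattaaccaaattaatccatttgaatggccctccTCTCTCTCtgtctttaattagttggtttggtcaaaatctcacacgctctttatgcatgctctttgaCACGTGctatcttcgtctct
CYP707A3: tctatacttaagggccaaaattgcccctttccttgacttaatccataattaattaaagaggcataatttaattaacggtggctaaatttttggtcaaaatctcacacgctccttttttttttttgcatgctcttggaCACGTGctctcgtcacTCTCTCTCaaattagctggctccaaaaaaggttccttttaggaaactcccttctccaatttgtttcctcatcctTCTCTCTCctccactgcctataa
CYP71A12: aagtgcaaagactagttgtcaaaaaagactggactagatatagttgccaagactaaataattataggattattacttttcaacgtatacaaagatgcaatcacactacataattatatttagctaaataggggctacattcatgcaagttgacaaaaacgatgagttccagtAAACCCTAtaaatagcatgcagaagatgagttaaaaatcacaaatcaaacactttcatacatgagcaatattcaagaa
CYP71A18: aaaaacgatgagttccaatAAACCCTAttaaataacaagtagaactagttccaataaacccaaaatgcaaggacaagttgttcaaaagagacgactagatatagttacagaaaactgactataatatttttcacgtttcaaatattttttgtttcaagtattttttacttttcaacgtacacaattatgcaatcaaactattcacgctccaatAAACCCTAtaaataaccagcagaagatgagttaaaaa
CYP71A27: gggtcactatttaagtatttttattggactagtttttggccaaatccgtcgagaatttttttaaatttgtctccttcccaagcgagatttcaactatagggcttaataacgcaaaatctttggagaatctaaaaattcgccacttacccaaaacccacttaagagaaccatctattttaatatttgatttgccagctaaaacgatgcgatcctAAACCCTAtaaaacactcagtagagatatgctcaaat

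The promoters lie at chr4:10521009-10521258 (plus strand), chr5:18371022-18371271 (minus strand), chr2:13101372-13101621 (minus strand), chr1:3909339-3909588 (minus strand) and chr4:10934238-10934487 (minus strand), and none overlaps an annotated gene. CYP707A1 and CYP707A3 share a run of 23 identical bases, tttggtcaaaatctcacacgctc, and each holds 1 G-box and 2 GA repeats. The G-box starts 20 bases upstream of the TSS in CYP707A1 and 113 bases upstream in CYP707A3. The telobox starts 78 bases upstream of the TSS in CYP71A12, 37 in CYP71A18 (with another at 231) and 37 in CYP71A27, within a shared run of 13 bases, taaaccctataaa. The H3K27me3 anchor covered all 250 bases of the CYP71A12 and CYP71A27 promoters and 231 of those of CYP71A18. CYP71A12 and CYP71A18 each had 1 H3K27me3 loop, of 5 and 7 PETs. CYP71A13, with 4 H3K27me3 loops and 37 PETs, had no telobox in its 250 bases.

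Over the whole set these elements occurred at shares near those of all promoters. The telobox stood in the 250 bp of 8 of 211 members (3.79%, 1.65 to 7.33), against 4.49% of all promoters, the GA repeat in 7 (3.32%) against 4.91%, and the G-box in 14 (6.64%) against 6.49%. Among the 61 members at H3K27me3 anchors alone, 4 had a telobox (6.56%, 1.82 to 15.9). Members of the active lists had it too, at 58 bases upstream of the TSS on the opposite strand in CYP705A18 and 34 bases upstream in CYP706A6. A match is a match of letters, and no binding was measured here.

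P450 genes were H3K27me3 anchor genes more often, and active anchor genes less often, than protein-coding genes at large. In the H3K27me3 list, 74 of 211 members were at an anchor (35.1%, 28.6 to 41.9), against 19.0% of all protein-coding genes. In the H3K4me3 list it was 57 members (27%, 21.1 to 33.5) against 43.5%, in the RNAPII list 33 (15.6%, 11 to 21.3) against 27.1%, and in the H3K4me1 list 41 (19.4%, 14.3 to 25.4) against 33.3%. Each of these 4 intervals excluded the share of all genes. In the H3K9me2 list 1 member, CYP81D1, was at an anchor (0.474%) against 1.42%.

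Each member fell into 1 of 5 classes. At anchors of an active list but not of H3K27me3 stood 85 members (40.3%, against 58.4% of all genes), at H3K27me3 anchors alone 61 (28.9%, against 13.5%), at both 13 (6.16%, 3.32 to 10.3, against 5.55%), at an H3K9me2 anchor alone 1, and at no anchor 51 (24.2%, 18.6 to 30.5, against 21.4%). At least 1 list held 160 members (75.8%, against 78.6% of all genes), and an active list held 98 members (46.4%, 39.6 to 53.4), against 64.0% of all genes. The shares at both kinds of anchor and at no anchor thus lay near those of all genes.

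**Figure D1:**
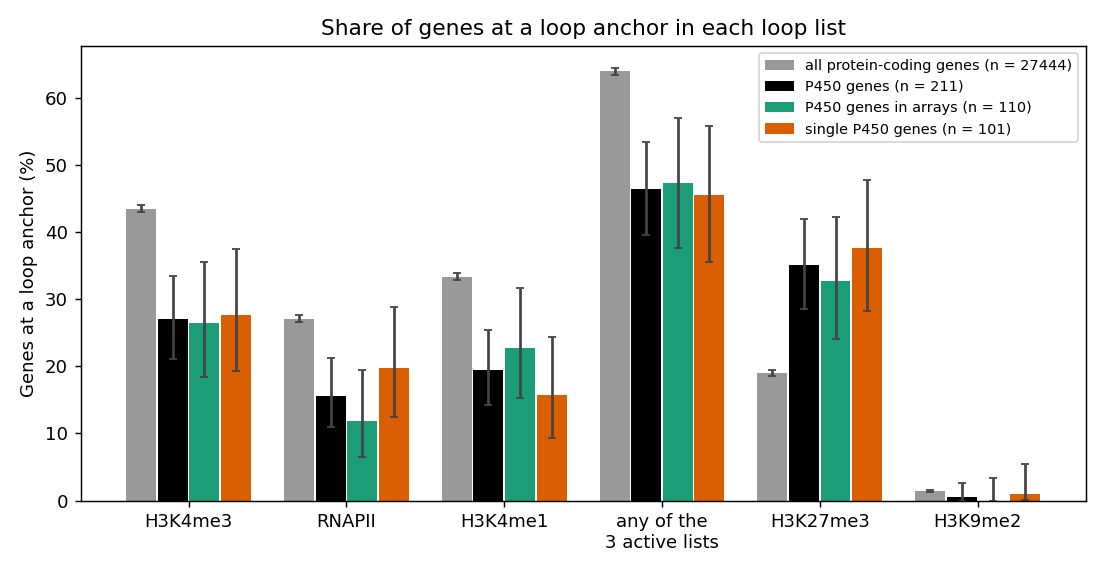
Percent of genes at a loop anchor (vertical axis) in each loop list and in any of the 3 active lists, for all protein-coding genes (grey), the 211 P450 genes (black), the 110 in tandem arrays (green) and the 101 single genes (orange), with exact 95% intervals of counting error as bars. The P450 bars stand below the grey bar in the active lists and above it for H3K27me3 (35.1% against 19.0%), and the intervals of array members and single genes overlap in every list.

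Members were then split into tandem arrays (a run of genes of 1 CYP family with at most 1 other protein-coding gene between successive members) and single genes. There were 33 arrays with 110 genes, the longest with 9, and 101 single genes. H3K27me3 anchors held 36 of 110 array members (32.7%, 24.1 to 42.3) and 38 of 101 single genes (37.6%, 28.2 to 47.8), and active anchors held 52 (47.3%, 37.7 to 57) and 46 (45.5%, 35.6 to 55.8). RNAPII anchors held 11.8% of array members (6.45 to 19.4) and 19.8% of single genes (12.5 to 28.9), and H3K4me1 anchors 22.7% (15.3 to 31.7) and 15.8% (9.33 to 24.4). All these pairs of intervals overlapped, so no difference between array members and single genes was detectable at this number of genes. With each array counted once, 16 of 33 had a member at an H3K27me3 anchor (48.5%, 30.8 to 66.5) and 17 of 33 at an active anchor (51.5%, 33.5 to 69.2).

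Most arrays had anchors of 1 kind. In 11 arrays (23 genes) members were at H3K27me3 anchors and none at an active one, in 12 (50 genes) the reverse held, 5 (27 genes) had both kinds, and 5 (10 genes) had no anchor. The 11 arrays of H3K27me3 alone were short: 10 had 2 genes and 1 had 3 genes. The 11 arrays of 4 or more genes (63 genes) comprised 8 of the active kind (41 genes) and 3 with both kinds (22 genes). A single member was enough to give an array its kind, and long arrays have more members that can do so. Of 77 pairs of successive array members, both were at H3K27me3 anchors in 19, of which 15 shared 1 anchor, and both at active anchors in 31, of which 17 shared 1. These were 24.7% and 40.3% of the pairs, against 12.4% and 50.9% of 27439 pairs of next-door protein-coding genes. A gene of active anchors alone stood next to a gene of H3K27me3 anchors alone in 3 of the 77 pairs (3.9%, against 4.8%).

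**Figure D2:**
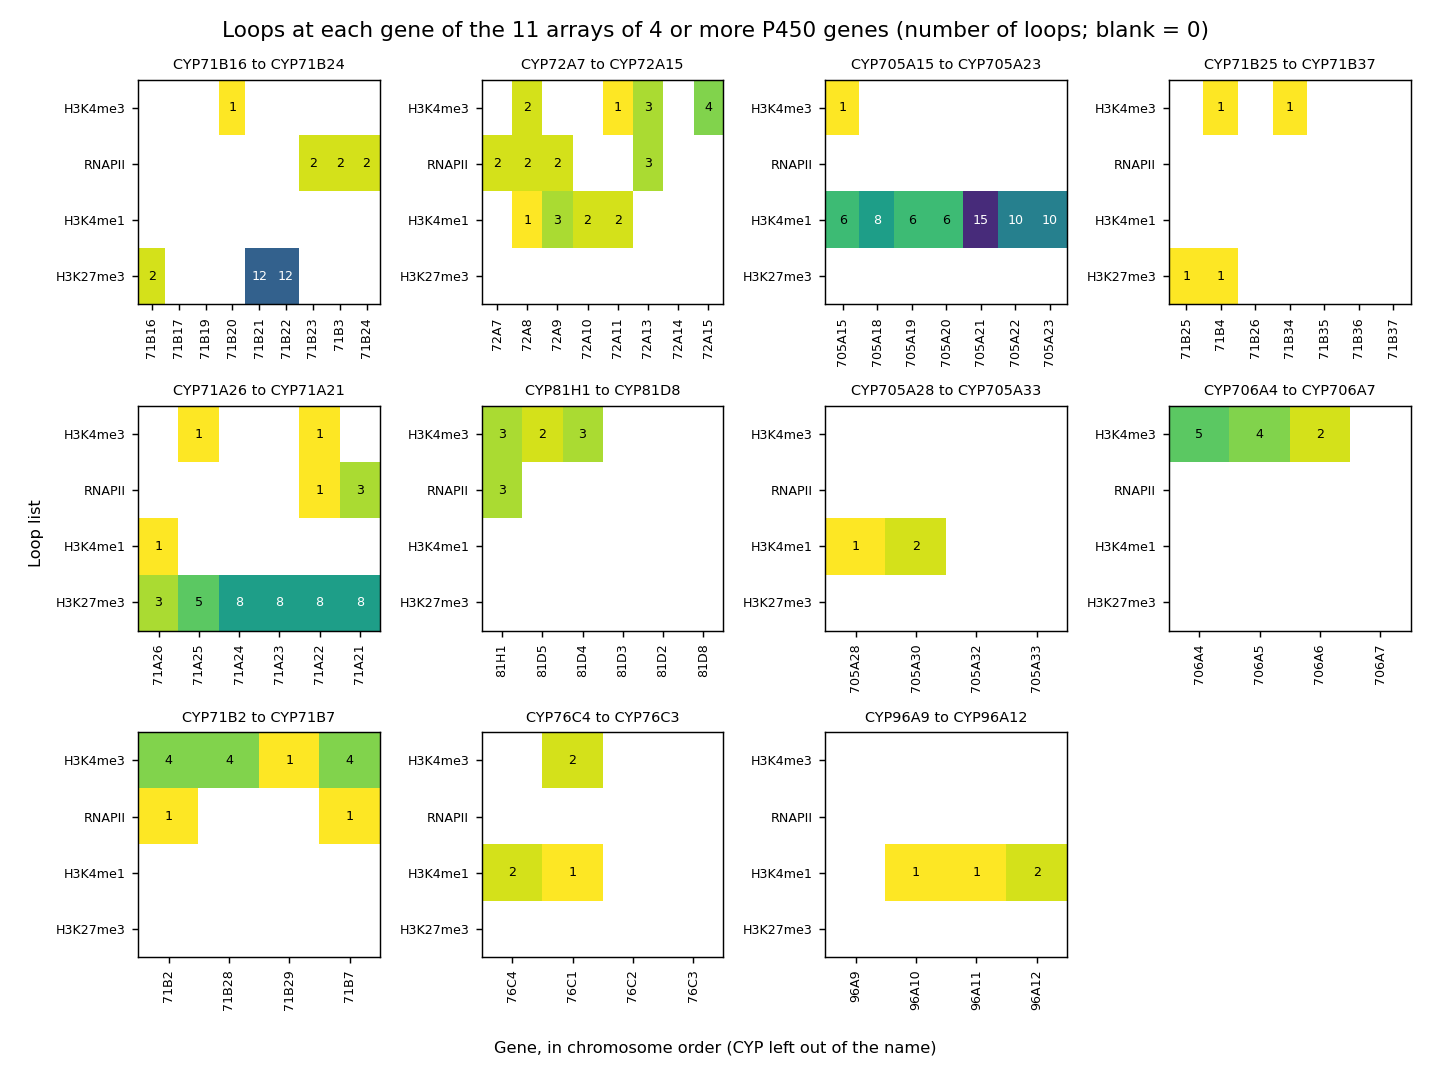
Number of loops at each gene (columns, in chromosome order) in 4 loop lists (rows) for the 11 arrays of 4 or more P450 genes, with blank cells for 0 loops. The CYP705A15 to CYP705A23 array has 6 to 15 H3K4me1 loops at each of its 7 genes, the CYP71A26 to CYP71A21 array 3 to 8 H3K27me3 loops at each of its 6 genes, and the CYP71B16 to CYP71B24 array has H3K27me3 loops at CYP71B16, CYP71B21 and CYP71B22 and active loops or none at the other 6 genes.

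The 7 genes from CYP705A15 to CYP705A23 (chr3:7007869-7030897) were all at H3K4me1 anchors, with 4 anchors and 17 loops covering 86.4% of the array, and none was at an H3K27me3 or RNAPII anchor. CYP705A21 had 15 H3K4me1 loops with 250 PETs, the most of any member in that list, CYP705A22 and CYP705A23 had 10 loops with 175 PETs each, and CYP705A15 had 6 with 69 PETs. In the 8 genes from CYP72A7 to CYP72A15 (chr3:4912324-4939871), 7 were at active anchors and none at an H3K27me3 anchor: CYP72A15 had 4 H3K4me3 loops with 38 PETs, CYP72A13 had 3 H3K4me3 loops with 30 PETs and 3 RNAPII loops with 14 PETs, CYP72A9 had 3 H3K4me1 loops with 25 PETs, and CYP72A14 had none. The lists that held an anchor therefore changed from gene to gene inside this array, and a gene at no anchor is not shown to lack a mark, since only loops are listed. All 4 genes from CYP71B2 to CYP71B7 were at H3K4me3 anchors, with 51 PETs at CYP71B28 and 7 at CYP71B29.

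The other active arrays of 4 or more genes were only partly at anchors. CYP706A4, CYP706A5 and CYP706A6 had 5, 4 and 2 H3K4me3 loops, and CYP706A7 had none. CYP81H1 (3 H3K4me3 and 3 RNAPII loops), CYP81D5 (2 H3K4me3 loops) and CYP81D4 (3 H3K4me3 loops) were at anchors, and CYP81D3, CYP81D2 and CYP81D8 of that array were at none. CYP96A10, CYP96A11 and CYP96A12 had 1 or 2 H3K4me1 loops. CYP76C1 and CYP76C4, of a subfamily that oxidises linalool and related monoterpenols, had 1 and 2 H3K4me1 loops, CYP76C1 had 2 H3K4me3 loops as well, and CYP76C2 and CYP76C3 had none. CYP705A28 and CYP705A30 had 1 and 2 H3K4me1 loops, and CYP705A32 and CYP705A33 had none.

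In 3 long arrays of family CYP71 both kinds of anchor occurred. All 6 genes from CYP71A26 to CYP71A21 (chr3:17876571-17892847) were H3K27me3 anchor genes, with 8 loops and 106 PETs at each of CYP71A24, CYP71A23, CYP71A22 and CYP71A21, which share 1 anchor, and 4 of the 6 were also at an active anchor, with at most 3 loops in a list. In the 9 genes from CYP71B16 to CYP71B24 (chr3:9565627-9599988), CYP71B21 and CYP71B22 shared an H3K27me3 anchor with 12 loops and 130 PETs, and CYP71B16, the first gene, had 2 H3K27me3 loops. Their neighbour CYP71B20 had 1 H3K4me3 loop with 9 PETs, CYP71B23, CYP71B3 and CYP71B24 had 2 RNAPII loops with 12 PETs each, and CYP71B17 and CYP71B19 had none. In the 7 genes from CYP71B25 to CYP71B37, 4 were at no anchor and the other 3 had a single loop in each list that held them.

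Counts by family follow, to be read beside the shares of all protein-coding genes, 64.0% at an active anchor and 19.0% at an H3K27me3 anchor, and with no test between families. All 6 CYP702 genes were H3K27me3 anchor genes and none was at an active anchor, and the same held for all 5 CYP82 genes, both CYP714 genes and both CYP735 genes. H3K27me3 anchors held 5 of 7 CYP79 genes, 3 of 4 CYP707 genes and 4 of 6 CYP78 genes. None of the 18 CYP705 genes was listed at an H3K27me3 anchor and 12 were at active anchors (a share near that of all genes), all 12 in the H3K4me1 list. The 9 CYP72 genes had 7 at active anchors, CYP704 and CYP98 had 3 of 3 each, CYP77 had 3 of 4 and CYP97 had 2 of 2, with none at H3K27me3. The largest family, CYP71 with 47 genes, was split into 16 at active anchors alone, 14 at H3K27me3 anchors alone, 5 at both and 12 at none. The families CYP81 (16 genes), CYP96 (12) and CYP86 (10) were mixed too, with 5, 5 and 3 genes at active anchors alone and 3, 3 and 3 at H3K27me3 anchors alone.

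**Figure D3:**
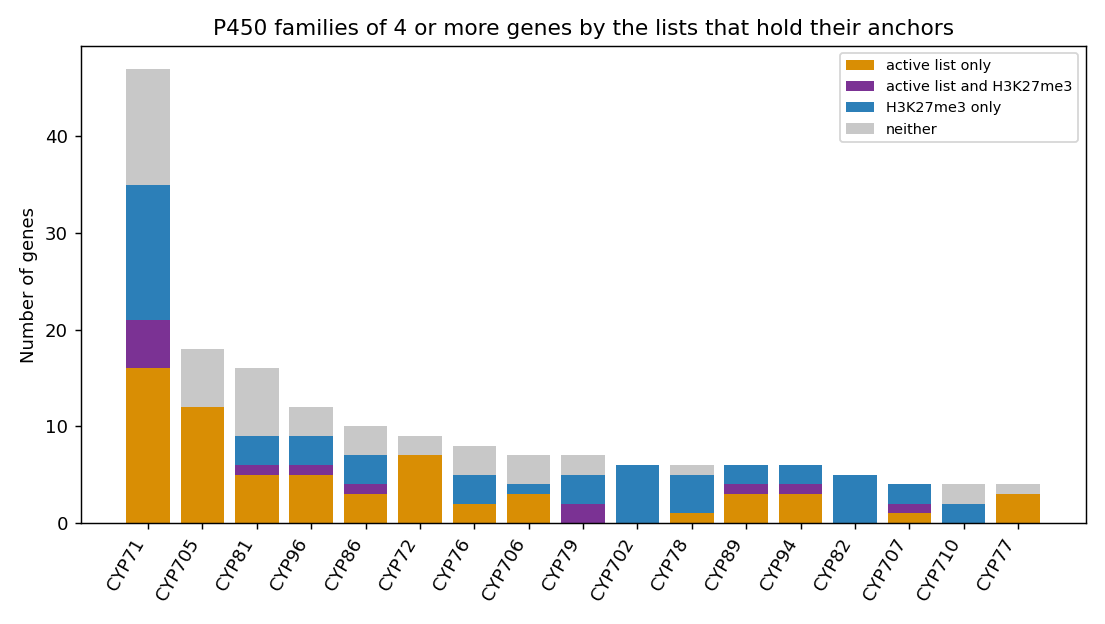
Number of genes (vertical axis) in each CYP family of 4 or more genes, coloured by the lists that hold their anchors: an active list only (orange), an active list and H3K27me3 (purple), H3K27me3 only (blue) or neither (grey). CYP702 (6 genes) and CYP82 (5 genes) are wholly blue, and CYP705 (12 of 18), CYP72 (7 of 9) and CYP77 (3 of 4) are orange and grey with no blue.

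Clans group families by deeper ancestry. In the clan of A-type P450s around CYP71 (134 genes), 54 were at active anchors alone and 35 at H3K27me3 anchors alone. In the CYP85 clan (19 genes), 13 were at H3K27me3 anchors and 4 at active anchors, and 6 of the 13 were CYP702 genes. Hormone genes of this clan known by another symbol, such as CPD, DWF4 and ROT3, are outside these 19. Of all protein-coding genes, 19.0% were at an H3K27me3 anchor and 64.0% at an active one. In the CYP86 clan (31 genes), rich in fatty acid hydroxylases, 11 were at H3K27me3 anchors and 17 at active anchors. In the CYP72 clan (18 genes) it was 4 and 9. Families inside a clan and genes inside an array are related and partly share anchors, so these counts were given no test.

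Next, the P450 genes of 12 pathways were examined, with genes known by another symbol (such as CPD or FAH1, which are outside the 211 members) named along with the members. Among the genes of abscisic acid breakdown, whose CYP707A enzymes hydroxylate the hormone, CYP707A3 had 14 RNAPII loops with 203 PETs from its own anchor and no H3K27me3 loop. Its strongest loop joined it over 13.3 kb to an anchor at AT5G45350 and AT5G45360 with 91 PETs, the highest PET count of a member loop in the RNAPII list. CYP707A1 (chr4:10521259-10523961) had 8 H3K27me3 loops with 122 PETs, 4 RNAPII loops with 21 PETs and 1 H3K4me3 loop with 10 PETs. Its H3K27me3 anchor ended 692 bp upstream of the TSS, while its RNAPII and H3K4me3 anchors began 87 and 173 bp downstream of it, so the promoter printed above lay in none of them, whereas the RNAPII anchor of CYP707A3 covered all 250 bases. CYP707A2 had 1 and CYP707A4 had 3 H3K27me3 loops.

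Of the 4 enzymes of jasmonate turnover, which oxidise the active hormone conjugate, 3 were at active anchors alone. CYP94B3 had 25 RNAPII loops with 284 PETs and CYP94C1 had 6 with 41 PETs, both from anchors that touch no other gene, CYP94B2 had 1 H3K4me1 loop, and CYP94B1 had 1 H3K27me3 loop with 5 PETs. Both cytokinin hydroxylases, which make trans-zeatin type cytokinins, were H3K27me3 anchor genes, with 2 loops and 15 PETs at CYP735A1 and 9 loops and 157 PETs at CYP735A2. CYP711A1 (MAX1), of strigolactone synthesis, had 2 RNAPII loops with 11 PETs. In gibberellin metabolism the genes of synthesis, GA3, CYP88A3 and KAO2, were at active anchors, and the inactivating CYP714A1 and CYP714A2 shared an H3K27me3 anchor with 3 loops and 36 PETs. The active anchors at GA3, CYP88A3 and KAO2 all touch genes outside the P450 genes as well, so their loops may belong to those genes. Of 9 brassinosteroid genes, CPD was at active anchors, ROT3, BAS1 and CYP724A1 at H3K27me3 anchors with 1 to 3 loops, and DWF4, CYP90D1, BR6OX1, BR6OX2 and CYP72C1 at none.

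Of 11 listed genes of glucosinolate synthesis 10 were found, and no gene carried the name CYP81F1 in the annotation used. Of these 10, 4 were at H3K27me3 anchors alone, 2 at both kinds, 1 at active anchors alone and 3 at none. Of all protein-coding genes, 19.0% were at an H3K27me3 anchor and 64.0% at an active one. The H3K27me3 anchors at CYP79F1, CYP79F2, CYP79B2, CYP79B3 and CYP81F4, and at CYP71A13 and CYP82C2 below, also touch genes outside the P450 genes. So do the RNAPII anchors at CYP83B1 and CYP79B2. CYP79F1 and CYP79F2, which start the aliphatic glucosinolates from elongated methionine, shared an H3K27me3 anchor with 7 loops and 133 PETs. CYP79B2 and CYP79B3, which convert tryptophan to indole-3-acetaldoxime, had 5 and 4 H3K27me3 loops with 39 and 38 PETs and 1 RNAPII loop of 4 PETs each. CYP83B1, the next enzyme of the indolic branch, had 3 H3K4me3 and 5 RNAPII loops, and CYP83A1, its aliphatic counterpart, had none. In camalexin and related defence, CYP71A13 and CYP71A12, which turn the oxime into a nitrile, had 4 and 1 H3K27me3 loops, CYP82C2 had 4, CYP71B6 had 3 H3K4me3 loops and PAD3, the last enzyme, had none.

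Of 7 phenylpropanoid genes, 6 were at active anchors, against 64.0% of all genes. C4H, which acts early in the lignin pathway, had 12 H3K4me3 and 10 RNAPII loops, from anchors that also touch genes outside the P450 genes. CYP98A3, which hydroxylates coumaroyl shikimate, had 5 H3K4me3 loops with 41 PETs, and CYP84A4 had 8 RNAPII loops with 59 PETs from an anchor shared with ZAT6. TT7, the flavonoid hydroxylase, had 1 H3K27me3 loop with 5 PETs. All 3 carotenoid hydroxylases were at active anchors: CYP97A3 had 7 H3K4me3 loops with 72 PETs from an anchor that also touches AT1G31790, LUT1 had 4 and CYP97B3 had 1.

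The 12 genes of cutin, suberin, wax and pollen wall lipids had 5 at active anchors alone, 3 at H3K27me3 anchors alone, 1 at both and 3 at none. The suberin hydroxylases CYP86A1 and CYP86B1, known from root tissue, were H3K27me3 anchor genes with 8 loops (73 PETs) and 5 loops (36 PETs), as was CYP96A15 (4 loops, 34 PETs), the alkane hydroxylase of stem wax. CYP86A2, a cutin hydroxylase of the shoot epidermis, had 3 H3K4me3 loops with 31 PETs and 9 RNAPII loops with 62 PETs. The H3K27me3 loops of CYP86A1 and CYP86B1 and the RNAPII loops of CYP86A2 came from anchors that also touch genes outside the P450 genes. CYP703A2 and CYP704B1, of the pollen wall, had 4 and 1 RNAPII loops from anchors that touch other genes. In sterol synthesis CYP51G1, the sterol demethylase, was at H3K4me3 and H3K4me1 anchors, CYP710A3 and CYP710A4 at H3K27me3 anchors with 1 and 2 loops, and CYP710A1 and CYP710A2 at none. Of the CYP78A genes, which act in organ growth, CYP78A5 (KLUH) had 7 H3K27me3 loops with 97 PETs and CYP78A7 had 5 with 43 PETs, CYP78A8 and CYP78A10 had 2 and 3, CYP78A9 had 1 H3K4me3 loop, and CYP78A6 had none.

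**Figure D4:**
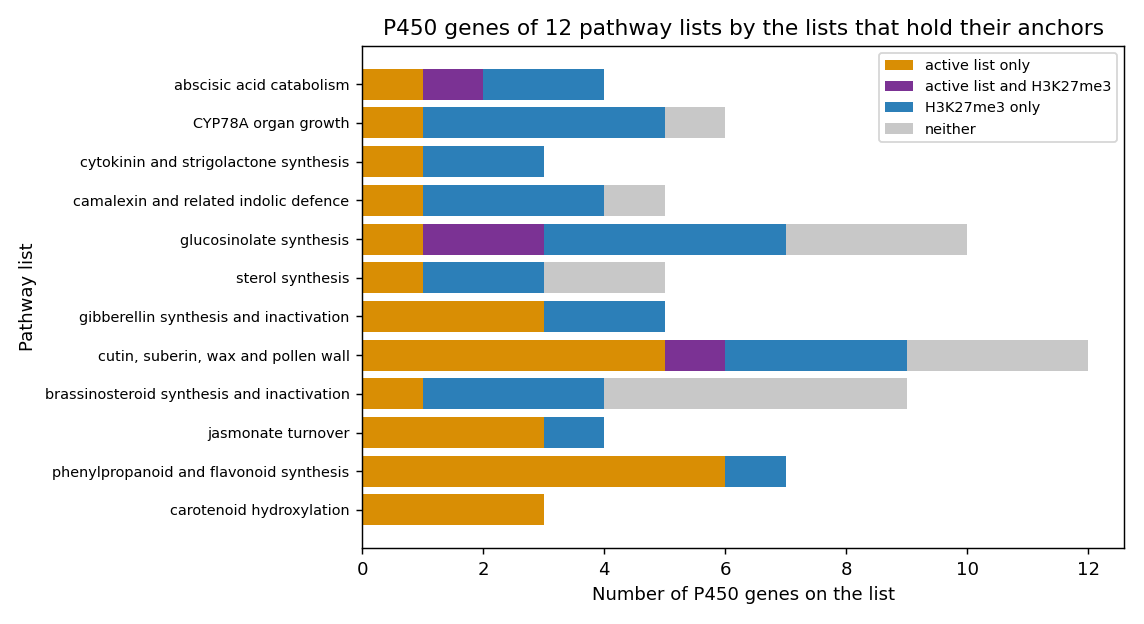
Number of P450 genes (horizontal axis) on each of 12 pathway lists, coloured by the lists that hold their anchors: an active list only (orange), an active list and H3K27me3 (purple), H3K27me3 only (blue) or neither (grey). Carotenoid hydroxylation (3 of 3) and phenylpropanoid synthesis (6 of 7) are mostly orange, and the bars of abscisic acid catabolism, glucosinolate synthesis and CYP78A organ growth hold more H3K27me3 genes than genes of active anchors alone.

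Members at H3K27me3 anchors had a median of 4 loops (3 to 5), against 3 for all genes at such anchors, with 6 (3 to 11) in arrays and 3 (2 to 5) as single genes. Array members share loops through a common anchor, so the 36 array members are not 36 separate values. In the H3K4me3, RNAPII and H3K4me1 lists the medians of members were 2, 3 and 2, equal to those of all genes at an anchor.

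Some short arrays, each under 1 wide H3K27me3 anchor that also touched neighbouring genes, had many loops: CYP76C6 and CYP76C5 with 17 loops (370 PETs), CYP71A19 and CYP71A20 with 15 (304 PETs), and CYP71A28 and CYP71A27 with 15 (264 PETs). The single gene CYP96A5 also had 15. In each of these 3 arrays a loop from the anchor to itself had the most PETs, with 182 at CYP76C6 and CYP76C5, 90 at CYP71A19 and CYP71A20 and 84 at CYP71A28 and CYP71A27. TPS13, a terpene synthase gene, stands between CYP71A19 and CYP71A20 inside that anchor. CYP702A2 and CYP702A3 had 14 loops and 801 PETs, the most PETs of any member, and CYP702A5 and CYP702A6 had 11 loops and 515 PETs.

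A large part of the PETs at CYP702A genes lay in loops to the neighbouring triterpene cluster, whose P450 genes are outside the set. The anchor at CYP702A2 and CYP702A3 was joined over 21.8 kb to the anchor at CYP705A1, PEN1 and CYP705A2 with 220 PETs and over 47.6 kb to that at CYP705A3, BARS1 and CYP705A4 with 197 PETs. The anchor at CYP702A5 and CYP702A6 was joined to the same anchors with 100 and 197 PETs. These 4 loops held 49.4% of the 1444 PETs of the 33 CYP702A loops and the other 29 loops held 50.6%, and 1 loop of 41 PETs over 73 kb joined the CYP702A arrays to each other.

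Some single genes had long or strong H3K27me3 loops too. CYP735A2 was joined over 6.94 kb to LBD40, of the LOB domain transcription factors, with 59 PETs, and CYP78A5 over 13.3 kb to an anchor at ATE1 with 33 PETs. CYP96A5 (15 loops, 218 PETs), whose anchor also touches WRKY59, was joined over 1525.7 kb to an anchor at WUS, the stem cell regulator, with 14 PETs at an FDR of 0.0257. CYP735A2 was also joined, between chromosomes, to the anchor at CYP705A3, BARS1 and CYP705A4 with 15 PETs at an FDR of 0.0497, just under the limit of the lists. These partners were picked after their values were seen.

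In the active lists, the members with most loops often shared an anchor with another gene. CYP86A8 (chr2:18912095-18914739), a fatty acid hydroxylase of the cuticle, had 55 H3K4me3 loops with 445 PETs, and the anchor also touches PIP1B, a plasma membrane aquaporin gene. CYP81G1 had 53 RNAPII loops with 545 PETs from an anchor shared with MYBR1 and HOS15, CYP71B38 had 37 with 364 PETs from an anchor shared with CAF1a, and CYP709B3 had 22 RNAPII loops with 222 PETs and 10 H3K4me3 loops with 81 PETs, also from shared anchors. The CYP71B38 anchor (chr3:15951048-15953434) lay wholly upstream of that gene (chr3:15948505-15950245, minus strand). It counted only because it reached into the 1 kb upstream stretch. To which gene loops from shared anchors belong cannot be told apart from the lists. CYP94B3 (25 loops) and CYP707A3 (14 loops), in contrast, had RNAPII anchors that touch no other gene.

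The loops with most PETs followed the same genes. In the RNAPII list, after the CYP707A3 loop, CYP94B3 was joined between chromosomes to MST1 with 44 PETs at an FDR of 0.0349, CYP709B3 over 21 kb with 41 PETs, CYP81G1 over 23997.7 kb to an anchor at ATAF2 with 39 PETs at an FDR of 0.0178, and CYP71B38 over 36.2 kb to NIT1 with 35 PETs. In the H3K4me3 list the highest were 24 PETs from the CYP86A8 anchor over 6.99 kb, 20 PETs between CYP71B28 and PBE1, and 17 PETs in each of 2 loops from CYP89A9, an enzyme of chlorophyll breakdown with 6 H3K4me3 loops, to AT3G03440 and to RGL2, and 16 PETs from CYP51G1 to AT1G11710, from CYP72A13 to CYP72A15 and in each of 2 loops from CYP97A3. In the H3K4me1 list they were 49 PETs from the CYP705A21 to CYP705A23 anchor to AT3G20150 and 46 PETs to an anchor at HIT1 from the wide anchor with 13 loops that CYP705A27 and CYP705A25 share with HIT1 and other genes, and 42 PETs inside the CYP705A15 to CYP705A23 array. A loop of that anchor to itself and a loop from CYP96A2 to PANK2 had 34 PETs each. In the H3K9me2 list the anchor that CYP81D1 shares with AT5G36225 had 3 loops with 63 PETs, 44 of them in a loop of 10.3 kb.

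The 13 members at both kinds of anchor were of 2 sorts. In 9 the active and the H3K27me3 anchors overlapped, as at CYP71A22 and CYP71A21 (2362 bp), CYP89A2 (2059 bp), CYP79B2 (1918 bp), CYP79B3 (2990 bp), CYP96A13 (780 bp) and CYP71A25 (463 bp). In 4 they lay apart, by 276 bp at CYP94D2, 466 bp at CYP71B4, 778 bp at CYP707A1 and 1841 bp at CYP81K2. CYP89A2 had 3 H3K4me3, 3 RNAPII and 6 H3K27me3 loops, CYP81K2 had 3 H3K4me3 and 4 H3K27me3 loops, and CYP96A13 had 2 H3K4me1 and 2 H3K27me3 loops. CYP86A8 had 55 H3K4me3 and 7 RNAPII loops and 1 H3K27me3 loop. The lists cannot show whether the 2 marks stood in the same cells.

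In the active lists, loops between P450 genes were mostly within arrays as defined here. Of the loops with different anchors, 40 joined 2 members, 15 in the H3K4me3 list, 6 for RNAPII, 8 for H3K4me1 and 11 for H3K27me3. Both genes lay in 1 array in 29, in 1 family but not 1 array in 9, and in different families in 2. For H3K27me3 it was 5 in 1 array and 6 in 1 family but not 1 array. These 6 include the loops of CYP89A2 to CYP89A7 and CYP89A6 over 5.48 and 8.34 kb, near neighbours that the array rule keeps apart. The split was not recounted under the other array rules, so no contrast with the active lists is drawn. In 8 of the 40 the anchors had a member in common, and in 17 neither anchor touched a gene outside the P450 genes. The strongest within arrays were CYP705A18 to CYP705A21 with CYP705A21 to CYP705A23 (H3K4me1, 42 PETs, 7.69 kb), CYP71A26 and CYP71A25 with CYP71A24 to CYP71A21 (H3K27me3, 25 PETs), CYP82C4 and CYP82C3 with CYP82C2 (H3K27me3, 18 PETs) and CYP72A13 with CYP72A15 (H3K4me3, 16 PETs, 12.3 kb).

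In the neighbourhood of CYP89A2, loops of different lists joined anchors at different relatives. CYP89A2 was joined to CYP89A7 and CYP89A6 in the H3K27me3 list (23 PETs over 5.48 kb, and 8 PETs to CYP89A6 over 8.34 kb). Beyond these genes, CYP89A5 was joined to CYP89A2 in the H3K4me3 list (8 PETs, 14.2 kb) and the RNAPII list (7 PETs, 14.5 kb). The H3K27me3 anchor at CYP89A2, the H3K4me3 anchor at CYP89A5 and both RNAPII anchors also touch genes outside the P450 genes. These loops thus cannot be assigned to the P450 genes alone. Farther loops between members were few. In the H3K27me3 list CYP71A19 and CYP71A20 were joined to CYP71A28 and CYP71A27 over 3183.8 kb with 12 PETs (FDR 0.0164), CYP71B21 and CYP71B22 to CYP71A24 to CYP71A21 over 8299.6 kb with 10 PETs (FDR 0.0362), and CYP71B21 and CYP71B22 to CYP71B25 and CYP71B4 over 42.3 kb with 6 PETs (FDR 0.0109). In the H3K4me3 list CYP77A9 was joined to CYP77A4 over 5.18 kb with 7 PETs. The loops between families were CYP72A13 with CYP71B38 in the RNAPII list (4 PETs, FDR 0.0366) and CYP93D1 with CYP712A2 in the H3K4me1 list (10 PETs over 4 kb).

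Member loops numbered 276 for H3K27me3 (4.37% of its loops), 229 for RNAPII (1.68%), 177 for H3K4me3 (1.22%) and 78 for H3K4me1 (0.584%). With loops from an anchor to itself left out, the median span of H3K27me3 member loops was 33.1 kb (22.9 to 51), against 24.3 kb for all H3K27me3 loops, and that of H3K4me3 member loops 10.6 kb (9.41 to 12.4), against 11.3 kb. H3K4me1 member loops were shorter than the list, with a median of 12.3 kb (9.72 to 17.4) against 17.7 kb, and 8.11% of them joined 2 chromosomes (3.03 to 16.8) against 23.2%. Of these 78 loops, 17 were at the CYP705A15 to CYP705A23 array and 13 at the anchor of CYP705A27 and CYP705A25. They are therefore not separate values, the intervals are too narrow, and no recount without these anchors was made. The share between chromosomes was 23.1% (18 to 28.8) against 23.4% for H3K27me3 and 45.4% (38.8 to 52.1) against 42.9% for RNAPII. For H3K4me3 it was 18.1% (12.7 to 24.6) against 8.61%, and 28 of these 32 loops came from the CYP86A8 anchor that PIP1B shares. Without that anchor the share was 3.28% (0.9 to 8.18). The median span of RNAPII member loops was 582 kb (49.9 to 1769.5), against 529 kb, and 185 kb without the anchor of CYP81G1. With only loops of an FDR below 0.001 the loops between chromosomes were few among members and in the whole lists alike: 0 of 102 against 0.963% (H3K4me3), 1 of 37 against 2.03% (RNAPII), 0 of 46 against 0.302% (H3K4me1) and 3 of 108 against 1.12% (H3K27me3). The median span of member loops was then 13.4 kb in the H3K27me3 list and 11.2 kb in the RNAPII list.

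**Figure D5:**
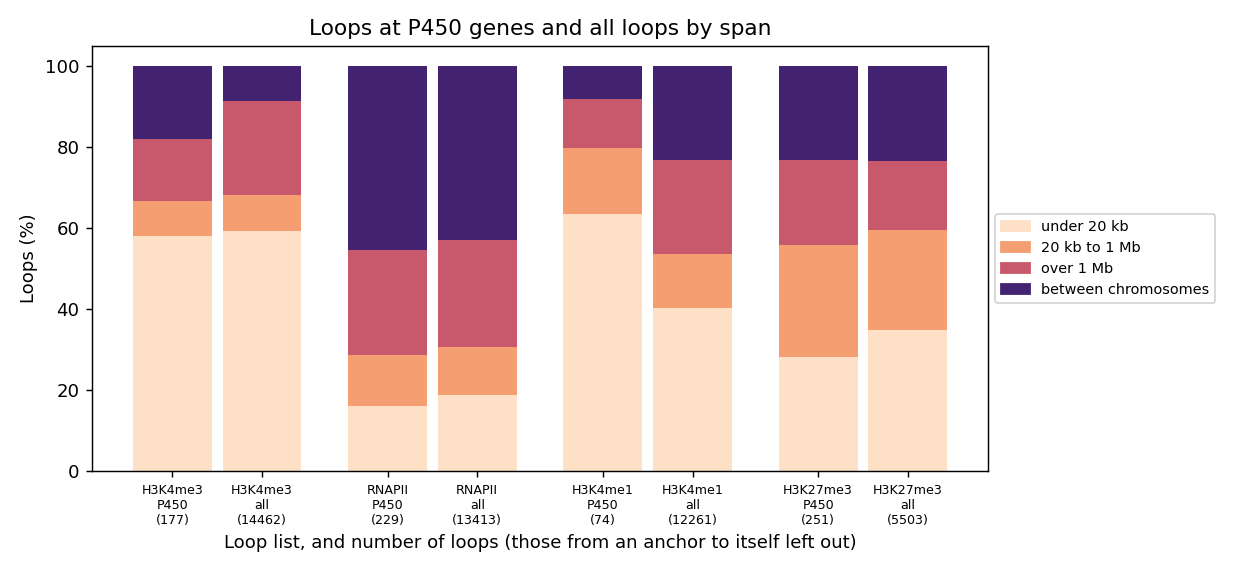
Percent of loops (vertical axis) by span class in 4 loop lists, for loops at P450 genes (left bar of each pair) and all loops (right bar), with the number of loops in brackets and loops from an anchor to itself left out. Member loops between chromosomes are 18.1% against 8.61% in the H3K4me3 list and 8.11% against 23.2% in the H3K4me1 list.

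Many anchors at members touched no gene outside the P450 genes: 39 of 61 in the H3K4me3 list (63.9%), 31 of 65 in the H3K27me3 list (47.7%), 11 of 34 in the RNAPII list (32.4%) and 11 of 38 in the H3K4me1 list (28.9%). Counting these anchors alone left 34 of 74 members at H3K27me3 anchors and 61 of 98 at active anchors. All genes were not recounted in this way, so whether members still stood above or below them was not checked. Anchors at members had a median width of 1057 bp (H3K4me3), 2398.5 bp (RNAPII), 2210.5 bp (H3K4me1) and 3788 bp (H3K27me3). The anchor midpoint lay a median of 622 bp (512 to 710) downstream of the TSS of members in the H3K4me3 list, against 398 bp for all genes, 873 bp (154 to 1564) against 1955.5 bp in the H3K4me1 list, 791 bp (288 to 940) against 263 bp in the H3K27me3 list and 1323.5 bp (1088.5 to 1613.5) against 1333 bp in the RNAPII list. The median midpoint of P450 genes thus lay farther into the gene for H3K4me3 and H3K27me3, and closer to the TSS for H3K4me1, than that of all genes. An anchor over a neighbouring gene counts where it reaches into the 1 kb upstream, and genes that share an anchor count separately. For H3K4me1 the lower quartile was -40 bp in members, against 1168.5 bp for all genes.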

How the data were processed

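Shoot chromatin was fixed with EGS plus formaldehyde, and the authors ran ChIA-PET Tool V3 against TAIR10, taking ChIP-seq peaks of each factor as given anchors. Replicates were combined before loop calling, and a loop needed an FDR under 0.05 as well as a PET minimum that depended on depth. The deposited lists hold whole-number counts (PETs per loop, not normalized) and adjusted p-values (FDR), which served only as a filter. The lists have no header, so both columns were identified from the layout of that tool and from the values. Depth per replicate was not analysed here.

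Coordinates were taken as given. Genes were those of RefSeq TAIR10.1, whose nuclear chromosomes held every anchor, and 5 loops that reach the mitochondrial genome were dropped. Intervals are exact (Clopper-Pearson) for shares and from order statistics for medians, computed in Python 3.11.15 with numpy 2.4.6, pandas 2.3.3 and scipy 1.17.1. The overlap step was tested on simulated data: 60 of 60 planted members were recovered among 27444 genes. Motifs were searched on both strands. Members, families, pathways, tissue genes and tests were chosen with earlier results of these data known. Named by rule were the 5 members with most loops and the 5 loops with most PETs in each list, examples of arrays of 4 or more genes and of the pathway lists, the loops between arrays or families and up to 10 genes at both kinds of anchor, taken by PETs summed over the lists; other genes were named after their values were seen. Alternatives were the overlap rule, the PET minimum, the FDR, the anchors counted, the gene names and the array rule.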

Additional observations from a re-analysis of the deposited data

How the results depend on the processing

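No paired analysis was possible because each list pools the 2 labelled replicates of its antibody and has no column per replicate, and for the same reason no replicate could be left out. Over 9 other settings and 19 results, 101 of 132 values stayed within the interval of the value given above, or within 1.5 times for a count. None moved when only promoters were counted, when loops from an anchor to itself were left out, when genes known by a synonym were added, or under either other array rule. Under those array rules only the shares of array members and of single genes at anchors were recounted. With 0.5 of the anchor or gene window covered, H3K9me2 had 0 members.

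With at least 8 PETs in every list, RNAPII had 19 members, 23 loops joined 2 members, 37.3% of array members were at active anchors and 23.8% of single genes at H3K27me3 anchors. The median span became 8 kb (H3K4me3) and 21.8 kb (H3K27me3), and the share between chromosomes 34.4% (H3K4me3) and 57.6% (RNAPII). With an FDR below 0.001 the medians were 8.28 kb (H3K4me3), 11.2 kb (RNAPII), 9.37 kb (H3K4me1) and 13.4 kb (H3K27me3), and the shares between chromosomes 0% (H3K4me3), 2.7% (RNAPII), 0% (H3K4me1) and 2.78% (H3K27me3). Under both settings members stayed above all genes for H3K27me3 (26.1% against 14.8%, and 30.3% against 16.1%) and below them for the active lists (37% against 51.7%, and 42.7% against 60.4%).

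With anchors that touch no gene outside the P450 genes, members numbered 15 (RNAPII), 17 (H3K4me1), 34 (H3K27me3), 0 (H3K9me2) and 61 (any active list), and 17 loops joined 2 members. No share of all genes was computed under this setting, so the contrast with all genes was not checked there. Array members and single genes were at active anchors in 36.4% and 20.8%, and at H3K27me3 anchors in 12.7% and 19.8%. Array members have P450 genes as neighbours by definition, so this filter treats the 2 groups unlike and cannot compare them. The medians were 9.06 kb (H3K4me3) and 21.8 kb (H3K27me3), and the shares between chromosomes 1.41% (H3K4me3) and 35.1% (RNAPII). The cause of these moves was not tested. Chosen after seeing the data, leaving out the CYP86A8 anchor gave 3.28% between chromosomes for H3K4me3, and leaving out the CYP81G1 or CYP71B38 anchor gave 42% and 44.8% for RNAPII and a median span of 185 and 397 kb. Loops under a list's PET minimum are not seen, and that minimum differs between lists, which limits what an absence can show.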

Other observations

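The 15 P450 genes that carry a CYP name only as a synonym, and so fall outside the set, had 7 at active anchors, 3 at H3K27me3 anchors, 0 at both and 5 at none. CPD, an enzyme of brassinosteroid synthesis, had 10 H3K4me3 loops with 106 PETs. C4H had 12 H3K4me3 loops with 104 PETs and 10 RNAPII loops with 80 PETs, from anchors shared with genes outside the P450 genes. The 8 P450 genes of the triterpene clusters, left out of the set, were H3K27me3 anchor genes in 8 of 8, and none was at an active anchor. They had from 2 loops with 22 PETs (CYP705A12) to 22 loops with 1797 PETs (CYP705A3 and CYP705A4). Of the CYP705 family, these were 6 genes at H3K27me3 anchors, and the 18 genes outside the clusters had none listed there.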
